A study of Mus musculus with 3 samples.

Results

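The dual-specificity MAP kinase phosphatases are described here by the open chromatin at 9 of their genes, Dusp1, Dusp2, Dusp4, Dusp5, Dusp6, Dusp7, Dusp8, Dusp10 and Dusp16, in the mouse uterus just before implantation. Their peaks are those that overlap the annotated gene or the 10 kb on either side, which gave 15 of the 12413 peaks in the map. The 9 genes were among 21523 protein-coding genes placed against it. FAIRE-seq, which recovers DNA that formaldehyde has not fixed to protein, was applied to whole uteri of untreated wild-type C57BL/6J females of 6 to 10 weeks, mated with fertile males and collected on gestation day 4 (3 mice, a single group). Luminal and glandular epithelium, stroma, muscle, vessels and immune cells are therefore mixed in each value. The peak table names no mouse, so no value below carries an error between animals, nothing was tested between samples, and library depth is unknown.

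MAP kinases (ERK, JNK and p38) relay growth factor, hormone and stress signals to the nucleus, and they are active only while a threonine and a tyrosine in their activation loop are both phosphorylated. Dual-specificity phosphatases remove both phosphates and so end the signal. Many of their genes are themselves switched on by the kinases they oppose, which makes a negative feedback loop. The family has 3 textbook classes, used here to order the results: nuclear enzymes made as immediate early genes (Dusp1, Dusp2, Dusp4 and Dusp5), cytoplasmic enzymes selective for ERK (Dusp6, Dusp7 and the X-linked Dusp9), and enzymes that prefer JNK and p38 (Dusp8, Dusp10 and Dusp16). In the uterus, epidermal growth factor ligands and Lif, acting around implantation, signal in part through MAP kinases.

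All 9 genes had at least 1 peak, and 14 of the 15 peaks had their summit within 2 kb of an annotated start (for Dusp4, of a gene end). Of all 12413 peaks, 86.1% lay that close to a protein-coding start or gene end, so this position is common to most of the list. By comparison, 57.6% of all protein-coding genes had a peak in this window, and 61.4% of those whose length lay between the shortest and the longest of the 9. Counted within 1 kb of either annotated gene end, 7 of the 9 had a peak, against 44.5% of protein-coding genes. The exceptions were Dusp6, whose only peak lay farther upstream, and Dusp16, whose peaks lay at a start 14435 bp inside the annotated gene. More than 1 peak was found at 5 of the 9 genes, against 19.9% of protein-coding genes, a share that includes genes without any peak. Neighbouring peaks were only 103 to 441 bp apart at Dusp1, Dusp7, Dusp10 and Dusp16, and 12322 bp apart at Dusp8. The count thus depends on how close peaks were split in the list. The peaks of these genes were of ordinary strength: the fold enrichment over local background, the authors' score of a peak, had a median of 5.42 over the 15 peaks (range 2.83 to 8.10), against a median of 5.80 over the whole list (interquartile range 4.37 to 7.79). Their median width was 380 bp (range 233 to 927), against 427 bp over all peaks.

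**Figure D1:**
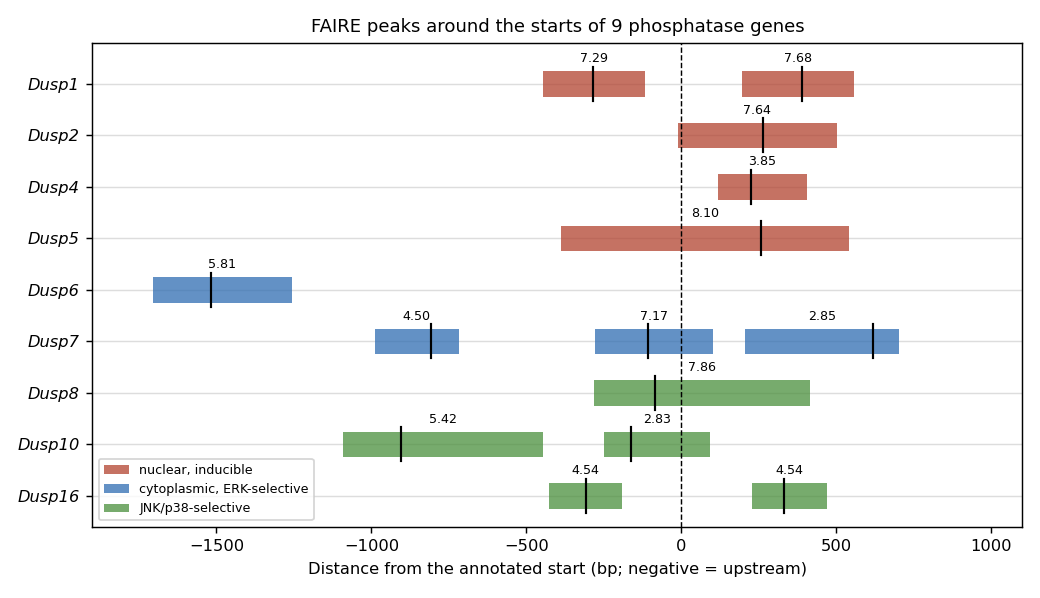
Each bar is a FAIRE peak, placed by its distance in bp from the annotated start of the gene named on the vertical axis (dashed line; negative is upstream), with the summit as a black tick and the fold enrichment above it. Dusp1 and Dusp16 have a peak on either side of the start and none over it, and the only Dusp6 peak ends 1257 bp upstream. For Dusp4 the distance is from the gene end with the lower coordinate, and a further Dusp8 peak, 12862 bp downstream of the start, is outside the plot.

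The sequences before the start show how the peaks lie over the promoters. RefSeq's promoter table (GRCm38.p6) matched 8 of the 9 genes; Dusp4 had no entry. Each window of that table holds the 250 bases before the start and 50 bases from the start base onward. The 250 bases before the start are printed for 6 genes that differ in peak cover. They are chr17:26508473-26508722 (Dusp1, minus strand), chr2:127335909-127336158 (Dusp2, plus strand), chr19:53528895-53529144 (Dusp5, plus strand), chr10:99262981-99263230 (Dusp6, plus strand), chr7:142095285-142095534 (Dusp8, minus strand) and chr6:134792629-134792878 (Dusp16, minus strand). Capitals mark bases inside a FAIRE peak, and all sequences read 5′ to 3′ towards the start.
Dusp1: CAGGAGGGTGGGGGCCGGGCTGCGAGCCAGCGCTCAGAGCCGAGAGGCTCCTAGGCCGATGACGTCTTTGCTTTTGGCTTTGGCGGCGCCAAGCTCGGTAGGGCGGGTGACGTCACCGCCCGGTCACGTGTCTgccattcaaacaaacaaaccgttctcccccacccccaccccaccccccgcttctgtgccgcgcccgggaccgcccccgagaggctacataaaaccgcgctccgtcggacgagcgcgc
Dusp2: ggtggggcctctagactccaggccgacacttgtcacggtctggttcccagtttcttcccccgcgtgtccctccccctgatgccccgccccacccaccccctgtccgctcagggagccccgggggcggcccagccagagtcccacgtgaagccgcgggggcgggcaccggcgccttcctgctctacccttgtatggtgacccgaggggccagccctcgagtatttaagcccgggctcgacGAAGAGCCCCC
Dusp5: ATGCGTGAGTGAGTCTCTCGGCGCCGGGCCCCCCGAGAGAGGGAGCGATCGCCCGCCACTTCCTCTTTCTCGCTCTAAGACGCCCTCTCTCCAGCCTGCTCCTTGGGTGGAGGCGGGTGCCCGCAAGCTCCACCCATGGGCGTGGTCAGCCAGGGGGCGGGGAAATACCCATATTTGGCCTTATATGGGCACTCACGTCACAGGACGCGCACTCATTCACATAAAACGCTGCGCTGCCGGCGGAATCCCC
Dusp6: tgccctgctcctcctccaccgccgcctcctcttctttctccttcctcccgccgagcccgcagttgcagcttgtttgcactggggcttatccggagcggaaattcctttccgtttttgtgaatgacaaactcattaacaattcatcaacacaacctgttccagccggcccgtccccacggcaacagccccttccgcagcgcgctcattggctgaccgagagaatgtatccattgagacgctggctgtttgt
Dusp8: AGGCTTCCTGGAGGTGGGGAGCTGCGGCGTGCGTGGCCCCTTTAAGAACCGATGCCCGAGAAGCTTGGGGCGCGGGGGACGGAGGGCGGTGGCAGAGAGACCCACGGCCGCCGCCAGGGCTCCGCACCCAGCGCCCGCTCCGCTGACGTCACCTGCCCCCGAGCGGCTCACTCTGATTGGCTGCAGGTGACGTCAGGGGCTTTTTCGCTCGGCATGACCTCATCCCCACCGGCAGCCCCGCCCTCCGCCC
Dusp16: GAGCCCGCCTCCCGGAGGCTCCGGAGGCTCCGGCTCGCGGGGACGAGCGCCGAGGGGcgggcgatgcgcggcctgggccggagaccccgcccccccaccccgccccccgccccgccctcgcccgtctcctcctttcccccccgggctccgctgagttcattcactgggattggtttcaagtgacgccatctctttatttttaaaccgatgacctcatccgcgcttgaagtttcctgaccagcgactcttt

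Dusp5 and Dusp8 are in capitals throughout, Dusp6 nowhere, Dusp1 in its first 133 bases, Dusp16 in its first 57 and Dusp2 in its last 11. The start base itself lay inside a peak at 5 of the 8 genes with an entry (Dusp2, Dusp5, Dusp7, Dusp8 and Dusp10), against 37.8% of 17274 protein-coding genes in that table. A gap over the start between a peak on either side, both within 1 kb, was seen at 2 of the 8, Dusp1 and Dusp16, against 1.04% of the 17274 genes. This pattern was chosen after its values were seen, and it is given as a description.

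Among the nuclear, immediate early class, Dusp1, which inactivates all 3 kinds of MAP kinase and is also induced by glucocorticoids, had a pair of peaks of nearly equal strength. The downstream peak (chromosome 17, 26507916 to 26508278) began 194 bp after the start and had its summit at 390 bp, with a fold enrichment of 7.68, a pileup of 100 and a −log10 q of 51.7. The upstream peak (26508590 to 26508919) had its summit 284 bp before the start, with a fold enrichment of 7.29, a pileup of 95 and a −log10 q of 47.2. The pair ranked at the 74.1st and 69.8th percentile of all peaks by fold. Between them 311 bp around the start held no peak. The closer edge of the upstream peak, 118 bp before the start, lay just after the cAMP response element and the E-box described below.

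Dusp2, an ERK and p38 phosphatase first known from activated lymphocytes, had a single peak that began 11 bp before the start and ended 500 bp after it (chromosome 2, 127336148 to 127336659). Its fold enrichment was 7.64 (73.7th percentile), its pileup 71 and its −log10 q 37.2. The start of the peak thus nearly coincided with the start of the gene. An end of the long non-coding RNA gene Gm46762 lay 871 bp from the summit, so the peak cannot be assigned to Dusp2 alone.

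Dusp5, a nuclear phosphatase selective for ERK, had the widest peak of the 15 and the one with the highest fold enrichment, though the pileup and −log10 q were higher at both Dusp1 peaks and at the Dusp7 peak over its start. It covered 927 bp (chromosome 19, 53528758 to 53529684), a width at the 96.4th percentile of all peaks, and ran from 387 bp before to 539 bp after the start. The fold enrichment was 8.10 (77.6th percentile), the pileup 85 and the −log10 q 46.2. No end of another protein-coding gene lay closer to its summit than 70995 bp.

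Dusp4, which acts on nuclear ERK and JNK, had the weakest single peak of the class: 286 bp wide, with a fold enrichment of 3.85 (13.1st percentile), a pileup of 36 and a −log10 q of 9.24 (chromosome 8, 34807729 to 34808014). Its summit lay 224 bp inside the gene end with the lower coordinate. In all 4 nuclear genes the strongest peak had its summit inside the gene, 224 to 390 bp from the gene end or start. Over the promoter windows of all protein-coding genes with a peak within 1 kb, the strongest summit had a median position 17 bp after the start (interquartile range from 76 bp upstream to 147 bp downstream), and the 90th percentile lay 358 bp downstream. Dusp1, Dusp2 and Dusp5 thus lay past the upper quartile, and Dusp1 past 358 bp as well, while Dusp4, without a start in that table, cannot be placed against it. In the other classes each gene's strongest summit lay before its start, from 84 bp (Dusp8) to 1516 bp (Dusp6). Of the promoter windows of all protein-coding genes with a peak within 1 kb, 54.7% had the strongest summit after the start. The Dusp6 summit lay beyond that 1 kb, and the Dusp10 summit was 444 bp from an end of 1700056E22Rik. At Dusp16, however, a peak after the start had nearly the same fold, and at Dusp1 the upstream peak was close in fold. The classes were compared after their values were seen, and the difference was not tested.

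The cytoplasmic, ERK-selective class differed within itself. Dusp6, the main cytoplasmic brake on ERK and a gene that rises with FGF signalling, had no peak over its start, and the nearest end of another protein-coding gene was 63641 bp from its peak. Its only peak lay upstream, with the summit 1516 bp before the start (chromosome 10, 99261525 to 99261974), a fold enrichment of 5.81 (50.2nd percentile), a pileup of 60 and a −log10 q of 24.8. The promoter window of Dusp6 had the lowest G+C content of the 8, 57.3%, whereas the others ran up to 78.7% (Dusp7). Over all protein-coding promoter windows the median was 65.7% for those overlapped by a peak and 51.0% for the others. Whether base composition had a part in the lack of a peak was not tested.

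Dusp7, which removes phosphates from ERK in the cytosol, had 3 peaks within 1 kb of its start; 3 or more peaks in a gene's window of 10 kb flanks were found at 4.96% of protein-coding genes. The middle peak covered the start (chromosome 9, 106368354 to 106368733), with a fold enrichment of 7.17 and the highest pileup of the 15, 111, at the 89.4th percentile. The upstream peak (106367643 to 106367912) stood at 4.50-fold and the downstream peak (106368837 to 106369334) at 2.85-fold, the latter at the 0.524th percentile of the list. All 3 peaks had a local background of 14.3 to 14.8, the highest among the 15 peaks, against a median of 8.59 over all peaks. The middle peak ranked lower by fold (68.5th percentile) than by pileup. The background was computed here from each peak's pileup and fold, so it restates that difference and is no separate measurement. Dusp9, the remaining enzyme of this class, had no peak inside its gene or in the 10 kb flanks.

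Among the enzymes that prefer JNK and p38, Dusp8 had a broad peak over its start (chromosome 7, 142094870 to 142095567), 698 bp wide, with a fold enrichment of 7.86 (75.6th percentile), a pileup of 85 and a −log10 q of 45.1. Its summit lay 84 bp before the start. An end of the long non-coding RNA gene Gm32786 lay 1202 bp from the summit, so the peak cannot be assigned to Dusp8 alone. A weak peak (142082067 to 142082547, 3.86-fold, pileup 32) lay inside the gene, 2935 bp from the gene end with the lower coordinate. It was the only peak of the 15 with its summit over 2 kb from its gene's start or end.

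Dusp10, a phosphatase of p38 and JNK, had a weak peak over its start and a stronger one upstream. The peak over the start (chromosome 1, 184034131 to 184034473) had a fold enrichment of 2.83, the lowest of the 15, a pileup of 29 and a −log10 q of 4.23. The upstream peak (184033289 to 184033935) had a fold enrichment of 5.42, a pileup of 59 and a −log10 q of 22.7. An end of the protein-coding gene 1700056E22Rik lay 444 bp from the upstream summit and 219 bp from the other, so these peaks may belong to either gene.

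Dusp16, a JNK phosphatase that shuttles between nucleus and cytoplasm, had a pair of weak, narrow peaks of like strength: 4.54-fold with a pileup of 40 downstream (chromosome 6, 134792159 to 134792402) and 4.54-fold with a pileup of 41 upstream (134792822 to 134793054). Their summits lay 331 bp after and 308 bp before the start, and the gap between the peaks was 419 bp. The arrangement resembles that at Dusp1, at a lower fold. An end of the long non-coding RNA gene 1700055D16Rik lay 63 bp from the downstream summit and 576 bp from the other, so the peaks cannot be assigned to Dusp16 alone.

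With 50 kb on either side, 7 of the 9 gained no peak. The same held for 50.3% of all protein-coding genes, and for 36.7% of those that had a peak in the 10 kb window. The further peaks were 1 beyond Dusp8, at 10.8-fold with its summit 57 bp from an end of Mob2, and 1 beyond Dusp16, at 8.40-fold with its summit 26 bp from an end of Crebl2. Both thus lay at the end of a neighbouring gene and had a higher fold enrichment than any peak of the phosphatase genes.

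**Figure D2:**
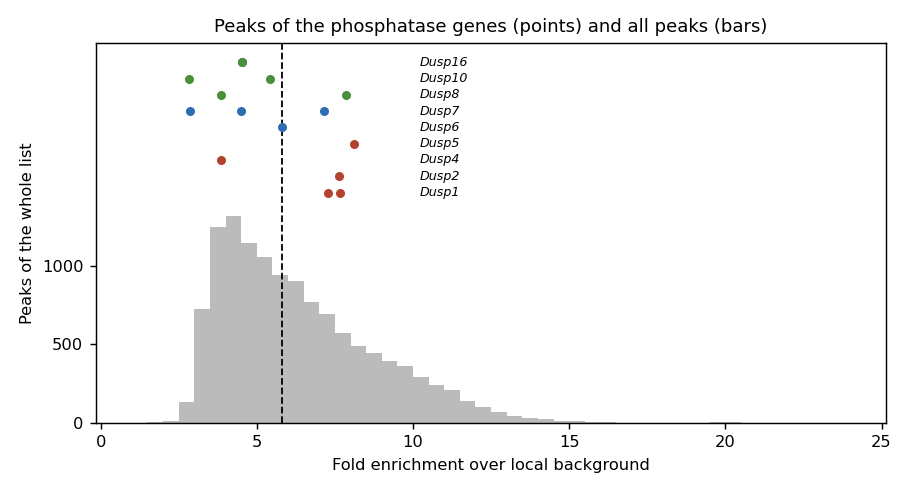
The histogram gives the number of peaks of the whole list (vertical axis) by fold enrichment over local background (horizontal axis), with the median of 5.80 as a dashed line. Points are the 15 peaks of the 9 named genes (red, nuclear; blue, cytoplasmic; green, JNK and p38 enzymes), whose height carries no value; they run from 2.83 to 8.10, with 7 of 15 above the median and 2 of 15 above the upper quartile of 7.79. The Dusp16 peaks overlie each other.

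Motif matches were then set against the peaks. Each was searched on both strands of the 8 promoter windows of 300 bases and of all 21045 protein-coding windows. The cAMP response element TGACGTCA, bound by CREB and ATF factors, was found in Dusp1 and Dusp8, against 2.26% of all windows. The Dusp1 site lay 143 to 136 bp before the start, and the Dusp8 sites at 107 to 100 bp and 63 to 56 bp. All 3 lay inside a peak. The Dusp8 window was covered by a peak throughout, so only the Dusp1 site could have lain outside one. The 3 sites are shown with 10 bases on either side and the element in capitals.
Dusp1, first base at 143 bp: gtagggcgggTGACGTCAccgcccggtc
Dusp8, first base at 107 bp: cccgctccgcTGACGTCAcctgcccccg
Dusp8, first base at 63 bp: tggctgcaggTGACGTCAggggcttttt

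The shorter core TGACG, which is part of that element, occurred in 5 of the 8 windows (Dusp1, Dusp2, Dusp5, Dusp8 and Dusp16), against 23.8% of all windows. The Dusp16 match lay outside its peaks. The CArG box, the site of serum response factor, was found in Dusp5 alone of the 8, against 1.54% of all windows. It occurred there as 2 boxes side by side, from 82 to 63 bp before the start, both inside the wide Dusp5 peak. That peak covers the whole window, so any match in the window lies inside it. The first is shown in capitals, with the second directly after it.
Dusp5, first base at 82 bp: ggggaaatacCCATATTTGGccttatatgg

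The E-box CACGTG was found in Dusp1, inside the upstream peak, and in Dusp2, outside its peak, against 7.91% of all windows. The EGR element GCGGGGGCG was found in Dusp2, 98 to 90 bp before the start and outside its peak, against 3.91%. GGGCGG, an Sp site, was present in 7 of the 8, all but Dusp6, against 46.7%. The letters CCAAT were present in 5 of the 8 (Dusp6, Dusp7, Dusp8, Dusp10 and Dusp16), against 38.5% of all windows. None of the 3 nuclear genes with an entry had them, and this split by class was not tested. The CCAAT matches of Dusp6 and Dusp16 and the Sp matches of Dusp2 lay outside a peak. At Dusp1 the Sp match 48 to 43 bp before the start lay outside a peak, and its other Sp matches inside. The Dusp16 Sp matches also lay outside, except that at 196 to 191 bp, which had 3 of its 6 bases inside. Peaks covered the Dusp5, Dusp7, Dusp8 and Dusp10 windows throughout, so every match there lay inside one. The 8 windows had a median G+C content of 67.8%, against 56.7% for all windows. The shares of all windows were not matched for it, and its part in the motif counts was not tested. A match is a run of letters and not a shown binding site.

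**Figure D3:**
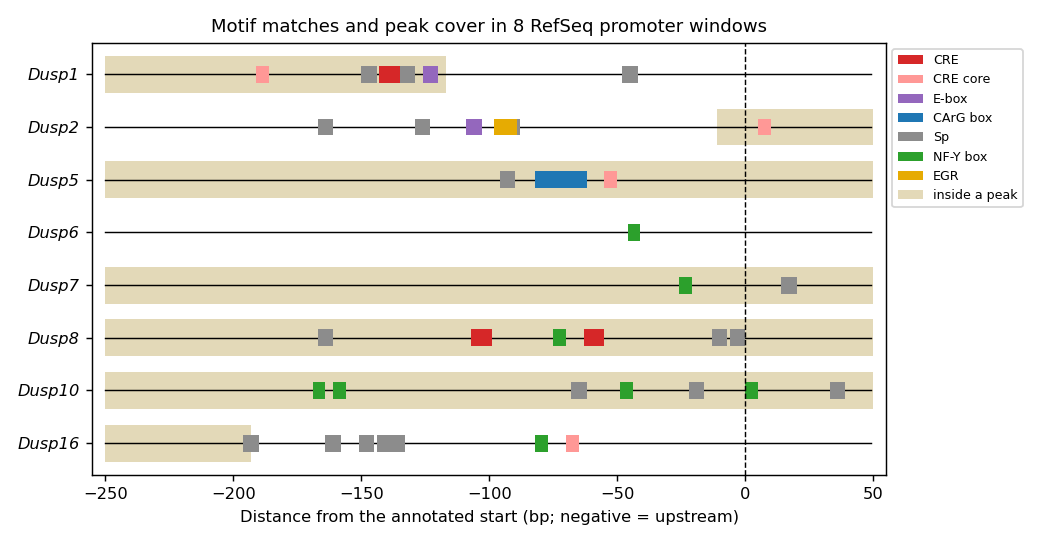
Each row is a promoter window of 300 bases, by distance in bp from the annotated start (dashed line), with bases inside a FAIRE peak shaded and motif matches as coloured boxes; pink boxes are the core TGACG outside a full element and green boxes the letters CCAAT, to which NF-Y binds. The Dusp1 and Dusp8 cAMP response elements and the adjacent Dusp5 CArG boxes lie in shaded stretches, whereas the Dusp2 EGR match lies before its peak. The Dusp5, Dusp7, Dusp8 and Dusp10 windows are shaded throughout.

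The genes that act with the phosphatases were examined in 6 lists of 66 genes, of which 57 (86.4%) had a peak inside or up to 10 kb from the gene, against the 57.6% of all protein-coding genes given above. Within 1 kb of a gene end, 46 of the 66 (69.7%) had one, against 44.5%. The folds below are of each gene's strongest peak in the wider window, which may lie away from its ends or belong to a neighbour. The 9 of 9 among the phosphatases described here therefore stood in a pathway whose genes mostly had a peak, and the shares were not tested against each other. Dusp9, of the same family but counted in neither set, had no peak. Among the MAP kinases, typical and atypical, 11 of 13 had a peak. The highest were at Mapk8 (JNK, 13.3-fold), Mapk6 (an atypical ERK, 11.0-fold), Mapk9 (JNK, 9.80-fold) and Mapk14 (p38, 8.48-fold), and Mapk10 and Mapk13 had none. Of the MAP kinase kinases, which phosphorylate ERK, JNK and p38, 6 of 7 had a peak. Their strongest peaks had a median fold of 10.3, against 7.17 for the strongest peaks of the 9 phosphatase genes and 6.61 over all protein-coding genes with a peak. Map2k4 (11.8-fold) and Map2k7 (9.86-fold), the JNK kinases, and Map2k2 (11.0-fold) and Map2k1 (10.7-fold), the ERK kinases, led that list, and Map2k6 had none.

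At the level above, 16 of 18 MAP kinase kinase kinases had a peak, among them Map3k2 (11.3-fold), Map3k4 (9.70-fold) and Map3k6 (7.94-fold), with none at Map3k13 or Mos, a germ cell kinase. Other inhibitors of Ras and ERK had a peak in 8 of 8, among them Rasa1 (7.61-fold), a Ras GTPase-activating protein, Spry2 (7.12-fold), Spred1 (6.49-fold) and Spred3 (5.87-fold). Other phosphatases of MAP kinases had one in 5 of 6: Ptpn7 (7.89-fold), Ppm1b (6.11-fold), Ppm1d (6.07-fold), Ppm1a (5.45-fold) and Ptpn5 (3.37-fold), with none at Ptprr. Of the atypical dual-specificity phosphatases, which lack the kinase-binding domain of the family described here, 11 of 14 had a peak. Styx, a phosphatase without catalytic activity (12.1-fold), Dusp22 (11.0-fold), Dusp14 (8.91-fold) and Dusp3 (8.54-fold) led them, all above the 8.10-fold of Dusp5, and Dusp18, Dusp21 and Dusp26 had none. The Dusp3 peak had its summit 2174 bp from the nearer gene end.

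**Figure D4:**
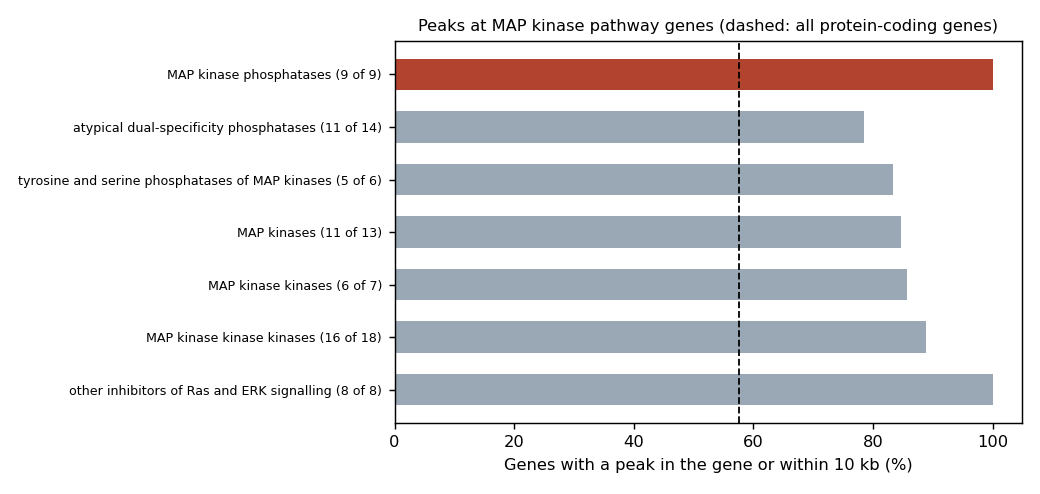
Bars give the percentage of genes of each list that have a peak inside or up to 10 kb away, with the counts beside the list names, and the dashed line marks the 57.6% of all protein-coding genes. The bar of the 9 MAP kinase phosphatases and that of the 8 other inhibitors stand at 100%, and every list lies above the line. Dusp9, which had no peak in this window, is in none of the bars.

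Markers of the tissue were checked in the same way. Of 6 stromal markers 5 had a peak inside or up to 10 kb away (none at Esr1), and of 5 epithelial markers 3 (none at Foxa2 or Krt8). Of 4 smooth muscle markers 2 had one (none at Acta2 or Myh11), of 3 endothelial markers 1 and of 4 immune markers 2. None of 4 genes of other organs had one. Against the 57.6% of all protein-coding genes in this window, stromal and epithelial markers lay above, and muscle, endothelial and immune markers below. The order depended on the window. Within 1 kb of a gene end, 2 of 6 stromal and 1 of 3 endothelial markers had a peak. Those shares lay below the 44.5% of all protein-coding genes. Epithelial (3 of 5), smooth muscle (2 of 4) and immune markers (2 of 4) lay above it. Hoxa10 and Hoxa11, both stromal markers, had the same strongest peak. Lists this short cannot show which cell types the map reflects. The source of the peaks at the phosphatase genes among these cell types was not tested.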

How the data were processed

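FAIRE DNA from 3 whole uteri was sequenced, and a single peak table that names no sample was analysed. FastQC, Bowtie2, HOMER and MACS2, without versions, and the build GRCm38.p5 are named in the submitters' processing notes; calling threshold, control and pooling are not given there. The columns are, per the file headers, each peak's deposited pileup (read here as a coverage signal at the summit), its fold enrichment (a ratio to local background), and its −log10 p-value and −log10 q-value. A high local background lowers the fold enrichment, and the depth behind the signal is unknown.

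Here, local background was computed as (pileup + 1) / fold − 1. Genes on chromosomes 1 to 19 and X starting beyond 3 Mb came from RefSeq tables of GRCm38.p6, with starts, strand and sequence from its promoter table; patch releases of a build keep its chromosome coordinates. An overlap of 1 bp placed a peak in a gene's window, and a peak could count for several genes. Percentile ranks are within the deposited list. Interval and motif routines (Python 3.11.15, pandas 2.3.3) were tested on simulated data. No test was made, since no value can be tied to a mouse. The genes named were all 9 phosphatases, Dusp9, coding neighbours within 1 kb, and of each pathway list the 4 with the highest fold and up to 2 without a peak; Ptpn5 and Dusp26, the marker genes, the non-coding neighbours, Mob2 and Crebl2 were named outside this rule after their values were seen. Spry3 was not analysed here. Of the genes this rule selects, 1 is not reported here. The members and lists were chosen with earlier results of these data known. The motifs and windows varied are given with the results.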

Additional observations from a re-analysis of the deposited data

How the results depend on the processing

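The peak count of the 9 genes fell from 15 to 7 when the list was limited to the 6207 peaks with the higher fold, and to 8 with the 6207 of higher −log10 q. Then 6 genes had a peak (none at Dusp4, Dusp10 or Dusp16; 36.2% of protein-coding genes) and 7 (none at Dusp4 or Dusp16; 35.9%). Dusp6, at 5.81, is kept narrowly by fold (the last kept is 5.80), and the upstream Dusp10 peak is itself the last kept by −log10 q. All 9 genes kept a peak with 5 kb or 50 kb flanks (54.2% and 70.8% of protein-coding genes), with the summit in the window (57.5%), by nearest protein-coding gene (14 peaks) and, in an alternative chosen after seeing the data, without 36 peaks of high local background (57.6%). In the gene span alone 8 did, all but Dusp6, against 48.8%. Gene-end peaks were found at 5 to 8 genes (26.0% to 51.9% of protein-coding genes) over the other windows and peak sets tried, and at 6 (43.3%) when only the end at the start (of the 8 genes with a promoter entry) was used. Around the starts of the promoter table, an alternative chosen after seeing the data, it was 7 of those 8, against 46.7% of genes. The median fold ran from 4.54 to 7.64. No mouse could be left out, and depth limits what a missing peak shows: at Dusp6 or Dusp9 it means only that no peak was called there.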

Other observations

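Several motifs were in none of the 8 promoter windows: TATAAA (12.7% of all protein-coding windows hold it), the AP-1 site TGANTCA (7.04%), the ETS site CCGGAA (18.9%), the STAT site TTCNNNGAA (7.76%) and the steroid receptor element (0.447%). No match says only that these letters are not in these windows. Mapk11 and Mapk12, p38 kinase genes beside each other, shared a peak of 3.87-fold. Over all 8 windows the G+C content had a median of 67.8%, against 56.7% for all protein-coding windows.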
